A study of Mus musculus with 8 samples.

Results

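A set of 10 receptor tyrosine kinase genes, typical of mesenchymal or epithelial cells, was followed through a mouse breast cancer line that was exposed to transforming growth factor β (TGF-β) or left untreated. They are Pdgfra, Pdgfrb, Fgfr1, Fgfr2, Fgfr3, Met, Axl, Igf1r, Kit and Ddr2, listed by symbol and matched to gene identifiers in the deposited count tables. All 10 were found among the 55450 genes of those tables. Polyadenylated RNA came from PyMT-1099 cells, a line from a mammary tumour driven by the polyoma middle T oncogene in a mouse. The 4 groups of 2 libraries were parental cells untreated, parental cells kept for 10 days with 2 ng/ml TGF-β, Agps knockout cells untreated, and Agps knockout cells given the same TGF-β treatment. All 4 groups share the line and its oncogene. Agps encodes a peroxisomal enzyme of ether lipid synthesis. The knockout libraries carry a single code in their names, and the labels do not say whether they come from 1 clone. The labels do not say that the libraries of a group are separate cultures, so the p-values rest on a spread between libraries that may be technical.

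Receptor tyrosine kinases span the cell membrane, bind a growth factor or a matrix protein outside the cell, and pair up so that their kinase domains phosphorylate each other and dock adaptor proteins inside. In mammary tissue Met, Fgfr2 and Igf1r are typical of epithelium and answer factors from the stroma, whereas the PDGF receptors, Ddr2 and often Axl and Fgfr1 are typical of mesenchymal cells. TGF-β is a widely used inducer of epithelial to mesenchymal transition. The comparisons asked which of these receptors differ after TGF-β, which differ when Agps is lost, and whether the TGF-β change itself differs between the lines.

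Library totals ran from 17007268 to 21311831 counts, and Pearson's r between the libraries of a group was 0.990 to 0.993. Levels are counts scaled to library size (CPM) after TMM scaling, per library or as mean ± SD of 2, and levels of different genes are compared only per kilobase of exon (RPKM). Agps itself stood at 357 and 330 CPM in untreated parental libraries and 265 and 266 CPM with TGF-β, against 32.9 and 29.3 CPM in untreated knockout libraries and 43.9 and 35.6 CPM with TGF-β. Of 6 epithelial markers, Cdh1, Krt8, Krt18 and Krt19 were tested, while Epcam and Cldn7 were at 0 in every group. The summed epithelial level was 5801 to 6396 CPM in untreated parental cells, 3125 to 3327 CPM in treated parental cells, 4181 to 4506 CPM in untreated knockout cells and 3234 to 3448 CPM in treated knockout cells. Cdh1 and Krt19 fell in both lines (-2.26 and -2.29 in parental, -2.53 and -2.97 in knockout cells), whereas the Krt8 and Krt18 changes did not pass the test in knockout cells (0.16 and 0.12). Cdh1 and Krt19 were lower in treated knockout than in treated parental cells (-1.35, adjusted p = 1.40e-05, and -1.24, adjusted p = 4.25e-05). They were already lower in the knockout without TGF-β (-1.09, adjusted p = 5.92e-05, and -0.56, adjusted p = 0.00644), as were Krt8 (-0.52) and Krt18 (-0.32). Cdh1 lies on chromosome 8, whose tested genes had medians of -0.46 without and -0.47 with TGF-β between the lines. In these bulk samples, fewer cells of a type and less RNA per cell cannot be told apart.

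Of the 10 receptors, 8 passed the filter on low counts. Kit, the receptor for stem cell factor on mast cells and melanocytes, and Fgfr3, an FGF receptor of cartilage and some epithelia, were below detection, with 8 counts each over all 8 libraries. Kit held 1 and 0 counts in the untreated parental libraries, 0 and 2 in the treated ones, 0 and 0 in untreated knockout libraries, and 2 and 3 in treated ones. Fgfr3 held 0 and 1, then 5 and 2, then 0 in each of the 4 knockout libraries, and 13.9% of its exon bases lie under a gene on the opposite strand. Neither was tested. Counting alone gives a ratio of 0 to 0.654 for Fgfr3 in treated knockout against treated parental cells (0 against 7 counts), and a lower limit of 1.02 for Kit in treated against untreated knockout cells (5 against 0 counts), with no account of the spread between libraries. Pdgfra, Pdgfrb and Fgfr1 passed the filter through their treated libraries alone, so they could hardly have been tested without differing, and the counts of called receptors that follow carry no weight as support.

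With TGF-β 5 of the 10 receptors rose and 2 fell in parental cells, where 21.3% of all 14641 tested genes were called higher and 21.2% lower. In knockout cells 4 rose and 3 fell, against 20.9% and 20.6% of all genes. A gene is called changed when its adjusted p in edgeR's quasi-likelihood test is under 0.05.

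The 250 bases before the RefSeq start are shown for the 4 receptors with an entry that moved most, 5′ to 3′ on the gene's strand, with CG dinucleotides in capitals (RefSeq, GRCm38.p6; 8 of 10 receptors matched). They let the base composition of Pdgfra and Axl, which rose in both lines, be set beside that of 2 receptors that fell. Of these, Fgfr2 fell in both lines and Ddr2 in knockout cells only. None of the windows overlaps an annotated exon of its gene.
Pdgfra, chr5:75152001-75152250, plus strand: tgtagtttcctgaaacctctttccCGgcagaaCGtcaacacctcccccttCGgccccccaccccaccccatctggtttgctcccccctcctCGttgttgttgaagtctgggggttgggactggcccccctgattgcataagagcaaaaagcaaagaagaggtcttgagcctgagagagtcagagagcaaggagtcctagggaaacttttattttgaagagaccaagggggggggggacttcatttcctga
Axl, chr7:25788734-25788983, minus strand: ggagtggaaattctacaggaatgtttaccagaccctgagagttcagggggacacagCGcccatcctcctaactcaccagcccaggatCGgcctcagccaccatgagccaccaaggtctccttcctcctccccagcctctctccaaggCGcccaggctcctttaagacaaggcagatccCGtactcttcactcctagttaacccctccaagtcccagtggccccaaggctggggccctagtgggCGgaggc
Fgfr2, chr7:130266809-130267058, minus strand: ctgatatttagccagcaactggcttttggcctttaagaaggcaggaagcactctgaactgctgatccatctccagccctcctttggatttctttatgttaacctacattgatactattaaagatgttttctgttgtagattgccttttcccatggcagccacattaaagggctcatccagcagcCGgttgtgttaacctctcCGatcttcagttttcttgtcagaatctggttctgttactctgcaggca
Ddr2, chr1:170088945-170089194, minus strand: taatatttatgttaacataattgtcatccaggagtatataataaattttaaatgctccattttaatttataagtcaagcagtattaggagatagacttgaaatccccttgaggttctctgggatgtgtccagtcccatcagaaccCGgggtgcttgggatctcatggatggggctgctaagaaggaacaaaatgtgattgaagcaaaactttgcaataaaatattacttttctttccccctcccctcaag
The windows hold 4, 5, 2 and 1 CG, at 54.4%, 60%, 44% and 37.6% G and C, whereas the median over 32851 promoters was 6 CG and 52.4%. Igf1r, which changed least, had 42 CG at 77.6%. Met, which also fell in both lines, had 24 CG at 74%, although 157 of its 250 bases lie in exons. The Pdgfra, Axl and Ddr2 starts lie 41, 28 and 0 bases from a GENCODE transcript start and that of Fgfr2 lies 545 bases away. Ddr2 and Fgfr2 also have annotated starts farther upstream, so their windows lie inside the annotated genes. Searched on both strands, CATTCC (the TEAD motif) was found once in the Axl window and in 12.6% of all windows, TGANTCA (the AP-1 motif) once in the Met window and in 6.75%, and CACCTG (an E-box) in none of the receptors' windows and in 17.2%.

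**Figure D1:**
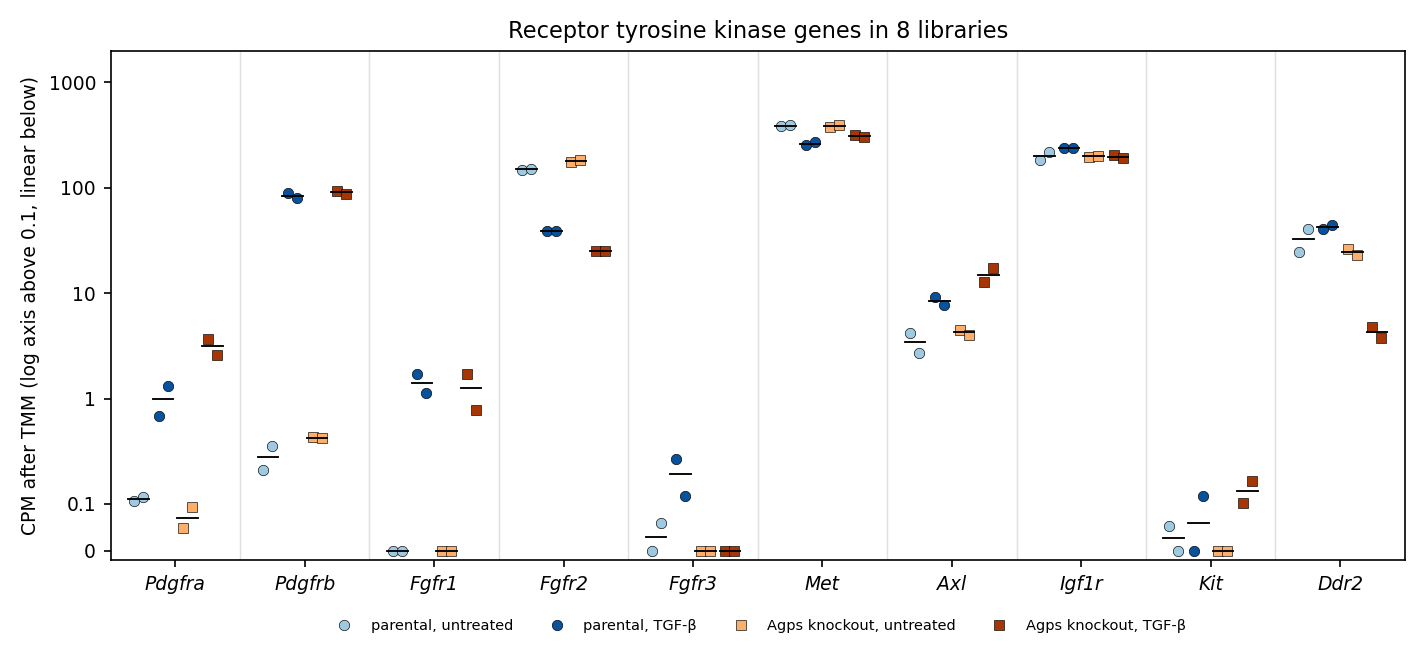
Level of each of the 10 receptors in every library, in CPM after TMM, on an axis that is logarithmic above 0.1 and linear below it; points are libraries and bars are means of 2. Pdgfrb stands at 80.1 to 94.0 CPM in the 4 treated libraries and at 0.211 to 0.435 CPM in the 4 untreated ones, while Ddr2 is low only in the treated knockout libraries (4.75 and 3.77 CPM).

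Both PDGF receptors rose with TGF-β. Pdgfrb (chr18:61045150-61085061, GRCm38, plus strand), the receptor for PDGF-B on pericytes and fibroblasts, was at 0.211 and 0.351 CPM in untreated parental libraries and at 89.0 and 80.1 CPM after TGF-β. In knockout libraries it went from 0.435 and 0.418 CPM to 94.0 and 87.1 CPM. Every treated library thus lay far above every untreated one. The log2 rise was 8.22 ± 0.19 (SE) in parental cells (adjusted p = 2.12e-10) and 7.71 ± 0.18 in knockout cells (adjusted p = 1.37e-10). The untreated groups held only 10 and 18 counts in all, which limits the precision of both folds. Counting alone gives a parental ratio of 306 with a 95% interval of 166 to 638. That interval is wider than the ± 0.19, which is derived from the F test, would give. The change did not pass the test for a difference between the lines (-0.51 ± 0.44, adjusted p = 0.755), and the treated lines did not differ beyond their spread (0.10 ± 0.10, adjusted p = 0.567).

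Pdgfra (chr5:75152292-75198215, plus strand), the receptor for PDGF-A and PDGF-C, stayed far lower. It held 2 and 2 counts in untreated parental libraries and 13 and 22 counts with TGF-β, or 0.105 and 0.117 against 0.689 and 1.31 CPM. In knockout libraries it held 1 and 2 counts untreated and 72 and 47 counts with TGF-β, or 0.0483 and 0.0928 against 3.64 and 2.61 CPM. Treated libraries lay above untreated ones in both lines, and treated knockout libraries above treated parental ones. The parental rise was 3.08 ± 0.62 (adjusted p = 0.00181). In knockout cells, where the untreated group has 3 counts, the ratio of treated to untreated was 44.3 with a counting interval of 14.8 to 218, and the test passed (adjusted p = 7.29e-06). With TGF-β the knockout was higher by 1.66 ± 0.34 (adjusted p = 0.00591), a call that was lost without parental TGF-β replicate 1 (1.25, adjusted p = 0.0906) or without knockout TGF-β replicate 1 (1.39, adjusted p = 0.0670). The change did not pass the test for a difference between the lines (2.26 ± 1.13, adjusted p = 0.415). Genes on the opposite strand cover 6.21% of its exon bases, and whether counting used strand is not stated in these sources.

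Markers of pericytes and fibroblasts, which carry PDGF receptors in tissue, and of endothelial cells were given beside these rises. None of 5 pericyte markers was tested. Their summed level was 0 in untreated parental libraries, 0.848 to 1.49 CPM in treated ones, 0.0464 to 0.0483 CPM in untreated knockout libraries and 0.554 to 0.607 CPM in treated ones. Of 6 fibroblast markers 1 was tested, with sums of 0.580 to 1.46, 1.79 to 1.80, 0.145 to 0.418 and 1.37 to 1.83 CPM in the same order. Dcn, which encodes decorin, held 1 count over all 8 libraries. Of 6 endothelial markers 3 were tested. Their sum moved from 1.46 to 2.11 CPM in untreated parental libraries to 76.8 to 77.0 CPM with TGF-β, and from 0.928 to 1.06 CPM to 6.60 to 8.19 CPM in knockout libraries. Cdh5, the cadherin of endothelial junctions, made up nearly all of it in treated libraries (75.6 and 6.69 CPM on average), while Emcn and Cldn5 were at 0 in all 4 groups and Tie1 in 3 of them. The part of these levels in the receptors' rises was not tested.

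The PDGF ligands rose together with their receptors. Of 17 listed ligands of the 10 receptors, 9 were tested, and with TGF-β 6 rose and 3 fell in each line, beside 21.3% and 21.2% of all genes in parental and 20.9% and 20.6% in knockout cells. Hgf passed the filter through its treated libraries. Pdgfa went from 38.9 and 34.4 CPM to 205 and 209 CPM in parental libraries (2.50 ± 0.10, adjusted p = 5.97e-09) and from 41.7 and 44.4 CPM to 232 and 213 CPM in knockout libraries (2.37 ± 0.10, adjusted p = 6.88e-09). An opposite-strand gene covers 26.1% of its exon bases. Pdgfb went from 156 and 108 CPM to 428 and 399 CPM in parental libraries (1.65 ± 0.14, adjusted p = 2.80e-06) and from 88.5 and 84.2 CPM to 311 and 292 CPM in knockout libraries (1.80 ± 0.14, adjusted p = 1.29e-06). Treated libraries of either line lay above all untreated libraries for both ligands. Pdgfb, the main ligand of Pdgfrb, was lower in the knockout without TGF-β (-0.61 ± 0.14, adjusted p = 0.0140) and with it (-0.46 ± 0.14, adjusted p = 0.0412). It lies on chromosome 15, whose 573 tested genes had medians of -0.17 and -0.02 in these comparisons. Pdgfc rose by 1.22 ± 0.18 and 1.32 ± 0.18, and Pdgfd held 3 counts in all.

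**Figure D2:**
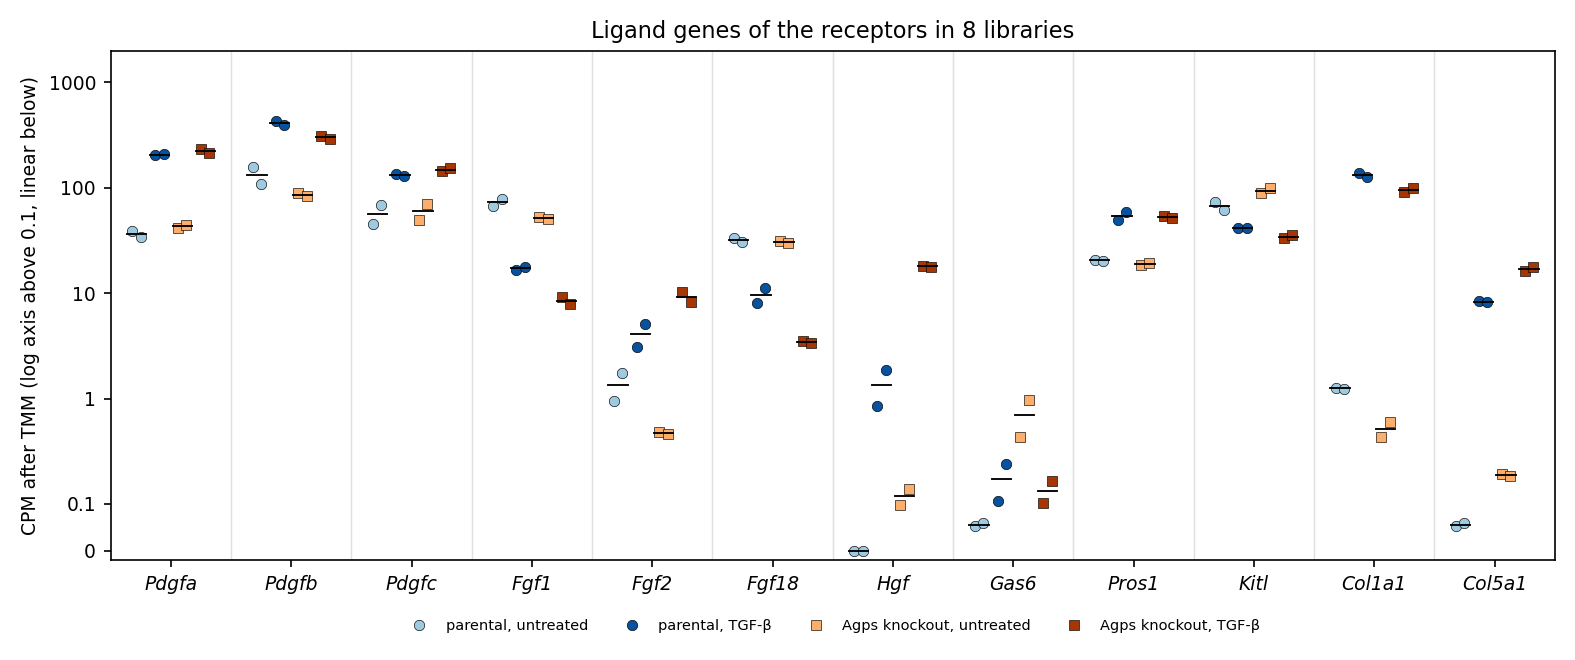
Level of 12 genes that encode ligands of the receptors, in CPM after TMM per library, on an axis that is logarithmic above 0.1 and linear below it; points are libraries and bars are means of 2. Pdgfa, Pdgfb, Hgf, Col1a1 and Col5a1 are higher in all treated libraries than in untreated ones, Fgf1 and Fgf18 are lower, and Hgf is at 18.3 and 17.8 CPM only in treated knockout libraries.

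The FGF receptors moved in opposite directions. Fgfr2 (chromosome 7, minus strand, from 130162451 in GRCm38), whose epithelial splice form binds FGFs made by stroma, was at 147 and 152 CPM in untreated parental libraries and at 38.6 and 38.9 CPM with TGF-β. In knockout libraries it was at 175 and 185 CPM untreated and at 25.0 and 25.2 CPM with TGF-β. The untreated knockout libraries were thus the highest of the 8 and the treated knockout libraries the lowest. The fall was -1.95 ± 0.09 in parental cells (3.86-fold, adjusted p = 1.43e-08) and -2.84 ± 0.09 in knockout cells (7.18-fold, adjusted p = 1.09e-09). It was larger in the knockout by -0.90 ± 0.12 (adjusted p = 0.00351), and this difference was called under all 15 alternative analyses, with adjusted p from 7.30e-06 to 0.0282. The annotated gene overlaps the neighbouring Ctbp2 on the same strand in 3.04% of its exon bases.

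Fgfr1 (chr8:25513654-25575718, plus strand), typical of mesenchymal cells, had 0 counts in all 4 untreated libraries. It held 32 and 19 counts in treated parental libraries and 34 and 14 counts in treated knockout libraries, or 1.70 and 1.13 CPM and 1.72 and 0.776 CPM. Against a floor of 3 counts per group it was at least 17.2-fold higher with TGF-β in parental cells (adjusted p = 5.59e-04) and at least 17.9-fold higher in knockout cells (adjusted p = 5.09e-04). The 95% counting intervals of the same ratios, which also take in the error of the treated counts, start at 13.5 and 14.0. Floors and intervals cover counting error only. The treated lines did not differ beyond their spread (-0.17 ± 0.43, adjusted p = 0.838). Chromosome 8 as a whole read lower in the knockout: the median over its 810 tested genes was -0.46 without and -0.47 with TGF-β, beside 0.00 and 0.01 over all genes, and the 93 tested genes within 10 Mb of Fgfr1 had medians of -0.32 and -0.26. The 142 neighbours of Ddr2 had medians of -0.02 and 0.11.

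FGF ligands moved in both directions too. Fgf1, which binds all FGF receptors, fell in parental (-2.09 ± 0.12) and in knockout cells (-2.61 ± 0.13). Fgf18 was at 33.2 and 30.8 CPM in untreated parental libraries and at 8.002 and 11.14 CPM with TGF-β, and in knockout libraries at 31.3 and 29.8 CPM against 3.49 and 3.38 CPM. The 2 untreated groups lay together and the treated knockout libraries were the lowest, so the fall was larger in the knockout by -1.41 ± 0.23 (adjusted p = 0.0102). Fgf2, a broadly acting FGF of mesenchyme, was at 0.949 and 1.76 CPM in untreated parental libraries, 3.07 and 5.06 CPM in treated ones, 0.483 and 0.464 CPM in untreated knockout libraries and 10.2 and 8.31 CPM in treated ones. Its rise was 1.59 ± 0.33 in parental and 4.27 ± 0.36 in knockout cells, a difference of 2.68 ± 0.53 (adjusted p = 0.0246), although Fgf2 shares 9.44% of its exon bases with genes on the opposite strand. Fgf7, Fgf9, Fgf10 and Fgf22 were not tested, with 33, 3, 1 and 3 counts in all.

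Of 5 listed splicing regulators that set the choice of FGF receptor exons, 4 were tested. Esrp2, an epithelial regulator, fell in both lines (-0.85 ± 0.14, adjusted p = 3.99e-04, and -0.44 ± 0.14, adjusted p = 0.0251), and Rbfox2 rose in both (0.63 ± 0.09, adjusted p = 2.12e-04, and 0.50 ± 0.09, adjusted p = 0.00104). Esrp1 had 1 count in the 8 libraries. Gene counts do not separate splice forms, so the exon choice itself was not measured.

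Met (chr6:17463800-17573980, plus strand), the receptor for hepatocyte growth factor, was among the most abundant receptors in every group. It was at 385 and 391 CPM in untreated parental libraries, 253 and 270 CPM in treated ones, 381 and 395 CPM in untreated knockout libraries and 318 and 306 CPM in treated ones. Untreated libraries of both lines lay together, above all treated ones. The fall was -0.57 ± 0.08 in parental cells (adjusted p = 1.41e-04) and -0.32 ± 0.08 in knockout cells (adjusted p = 0.00742, or 0.0531 without knockout TGF-β replicate 2). With TGF-β the knockout was higher by 0.25 ± 0.08 (adjusted p = 0.0477), a call lost in 10 of 16 alternatives. The test for a difference of the falls did not pass (0.25 ± 0.11, adjusted p = 0.344).

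Its ligand moved the other way. Hgf had 0 counts in untreated parental libraries and 0.848 and 1.85 CPM with TGF-β, at least 15.8-fold higher over the floor of 3 counts (adjusted p = 1.77e-04), with a counting interval that starts at 12.4. In knockout libraries it was at 0.0966 and 0.139 CPM untreated and at 18.3 and 17.8 CPM with TGF-β, from 5 counts to 683, a ratio of 153 with a counting interval of 65.1 to 472 (adjusted p = 1.54e-07). Treated knockout libraries exceeded treated parental ones by 3.76 ± 0.27 (adjusted p = 1.42e-05), while the difference of the 2 rises did not pass the test (adjusted p = 0.821), with the parental baseline at 0. Spint2, an inhibitor of the proteases that activate pro-HGF, fell in both lines (-1.94 ± 0.14 and -1.84 ± 0.14).

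Axl (chr7:25757273-25788705, minus strand), a receptor for GAS6 that is widely used as a marker of mesenchymal tumour cells, rose in both lines. It was at 4.22 and 2.69 CPM in untreated parental libraries and 9.27 and 7.75 CPM in treated ones, and at 4.44 and 4.04 CPM in untreated knockout libraries and 12.9 and 17.2 CPM in treated ones. The treated groups lay above the untreated ones, and the treated knockout above the treated parental libraries. The rise was 1.29 ± 0.24 (2.45-fold, adjusted p = 0.00103) and 1.82 ± 0.22 (3.54-fold, adjusted p = 4.06e-05). With TGF-β the knockout was higher by 0.82 ± 0.21 (adjusted p = 0.0189), which was lost without parental TGF-β replicate 1 (adjusted p = 0.0634), without replicate 2 of that group (0.153) and without knockout TGF-β replicate 2 (0.160). The difference of the rises did not pass the test (0.53 ± 0.33, adjusted p = 0.533).

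The related Tyro3 rose further, by 2.85 ± 0.20 in parental and 4.98 ± 0.23 in knockout cells, a difference of 2.13 ± 0.35 (adjusted p = 0.00958). Pros1, which encodes protein S, a ligand of Tyro3 and Mertk, went from 20.7 and 20.3 CPM to 49.4 and 58.7 CPM in parental libraries (1.40 ± 0.11) and from 18.4 and 19.3 CPM to 53.8 and 51.6 CPM in knockout libraries (1.49 ± 0.11). Gas6, the ligand of Axl itself, was not tested. It held 9 and 21 counts in untreated knockout libraries and 1 to 4 counts in each of the other 6.

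Igf1r (chr7:67952827-68233668, plus strand), the receptor for insulin-like growth factors, was the steadiest of the detected receptors. It was at 183 and 218 CPM in untreated parental libraries, 237 and 241 CPM in treated ones, 196 and 202 CPM in untreated knockout libraries and 203 and 193 CPM in treated ones. Only the treated parental pair lay above the rest. Its parental rise of 0.25 ± 0.09 just passed the test (adjusted p = 0.0473), and that call was lost in 10 of 16 alternatives. In knockout cells the change was -0.00 ± 0.09 (adjusted p = 0.978). Treated knockout and parental libraries differed by -0.27 ± 0.09 (adjusted p = 0.0708), and the difference of the changes was -0.26 ± 0.13 (adjusted p = 0.428). The call between the treated lines was gained in 4 of 16 alternatives, among them the fit with replicate number as a block (adjusted p = 0.0431). Igf1 and Igf2 held 5 and 1 counts in all.

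Ligand without receptor was seen for Kit. Kitl, which encodes stem cell factor, was at 73.6 and 62.1 CPM in untreated parental libraries and 41.5 and 41.4 CPM with TGF-β, and at 89.7 and 98.9 CPM against 33.1 and 35.3 CPM in knockout libraries. The fall was larger in the knockout by -0.75 ± 0.15 (adjusted p = 0.0278). Of 6 mast cell markers only Ms4a2 was tested, and Fcer1a was at 0 in 3 of the 4 groups. Ms4a2 held 6713 counts over all 8 libraries, against 2, 1, 3, 2 and 6 for Cpa3, Fcer1a, Tpsb2, Mcpt4 and Hdc. Ms4a2 thus made up nearly all of the summed level of these 6 markers. Their sum was 126 to 136 CPM in untreated parental libraries, 7.57 to 8.002 CPM in treated ones, 39.72 to 39.74 CPM in untreated knockout libraries and 1.497 to 1.770 CPM in treated ones. Of 5 melanocyte markers only Mlana was tested, and Tyr was at 0 in all 4 groups. Their sums were 1.48 to 2.64, 0.371 to 0.596, 6.33 to 7.05 and 0.404 to 0.610 CPM in the same order, and the part of either list in the Kitl values was not tested.

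Ddr2 (chr1:169972307-170110762, minus strand), a receptor for fibrillar collagen, gave the largest gap between the treated lines among the 10. It was at 24.7 and 41.0 CPM in untreated parental libraries and 40.8 and 44.7 CPM with TGF-β, whose ranges overlap. In knockout libraries it was at 26.1 and 23.0 CPM untreated and at 4.75 and 3.77 CPM with TGF-β. The treated knockout libraries alone stood far below the other 6. Ddr2 fell by 2.52 ± 0.24 in knockout cells on the log2 scale (5.73-fold, adjusted p = 4.94e-06), and with TGF-β the knockout was 9.99-fold lower than the parental cells (-3.32 ± 0.23, adjusted p = 5.55e-06).

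In parental cells the Ddr2 change of 0.38 ± 0.19 did not pass the test (adjusted p = 0.139), and the untreated replicates decide it: without replicate 2 it was 0.78 (adjusted p = 0.00163) and without replicate 1 it was 0.05 (adjusted p = 0.822). The untreated lines differed by -0.42 ± 0.20 (adjusted p = 0.204), or by -0.75 (adjusted p = 0.00556) without parental untreated replicate 1. The difference of the TGF-β changes was -2.90 ± 0.31 (adjusted p = 7.76e-04) and was called under all 15 alternatives, from -3.31 to -2.57.

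The 4 listed collagens that Ddr2 binds were all called higher with TGF-β in both lines, but Col1a2, Col3a1 and Col5a1 passed the filter through their treated libraries, so their call could hardly have been otherwise and the count is no support. Col1a1 went from 1.265 and 1.230 CPM to 137 and 125 CPM in parental libraries (6.71 ± 0.15, adjusted p = 2.12e-10). In knockout libraries it went from 0.435 and 0.603 CPM to 91.2 and 99.8 CPM (7.50 ± 0.17, adjusted p = 1.35e-10). Its untreated groups held only 45 and 22 counts, so these ± values may understate counting error. Col5a1 went from 2 counts to 295 in parental and from 8 counts to 642 in knockout cells. Col1a2 and Col3a1 were at 0 without TGF-β and reached 94 and 60 counts in treated parental cells, against 40 and 14 in treated knockout cells. In treated knockout cells, where Ddr2 was lowest, Col1a1 was lower than in treated parental cells (-0.46 ± 0.10, adjusted p = 0.00716) and Col5a1 higher (1.04 ± 0.15, adjusted p = 6.88e-04).

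Between the untreated lines only Fgfr2 was called among the 10, higher in the knockout by 0.27 ± 0.08 (adjusted p = 0.0493) and lost in 12 of 16 alternatives. Over all genes 4.72% were called higher and 8.94% lower there. With TGF-β Pdgfra, Met and Axl were called higher and Fgfr2 and Ddr2 lower (-0.63 ± 0.09, adjusted p = 6.68e-04, for Fgfr2), against 6.82% and 11.1% of all genes. Of the TGF-β changes themselves, those of Fgfr2 and Ddr2 differed between the lines, both toward lower levels in the knockout, against 1.25% of all genes called higher and 1.15% lower. The comparisons share libraries: each group enters more than 1 of them.

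**Figure D3:**
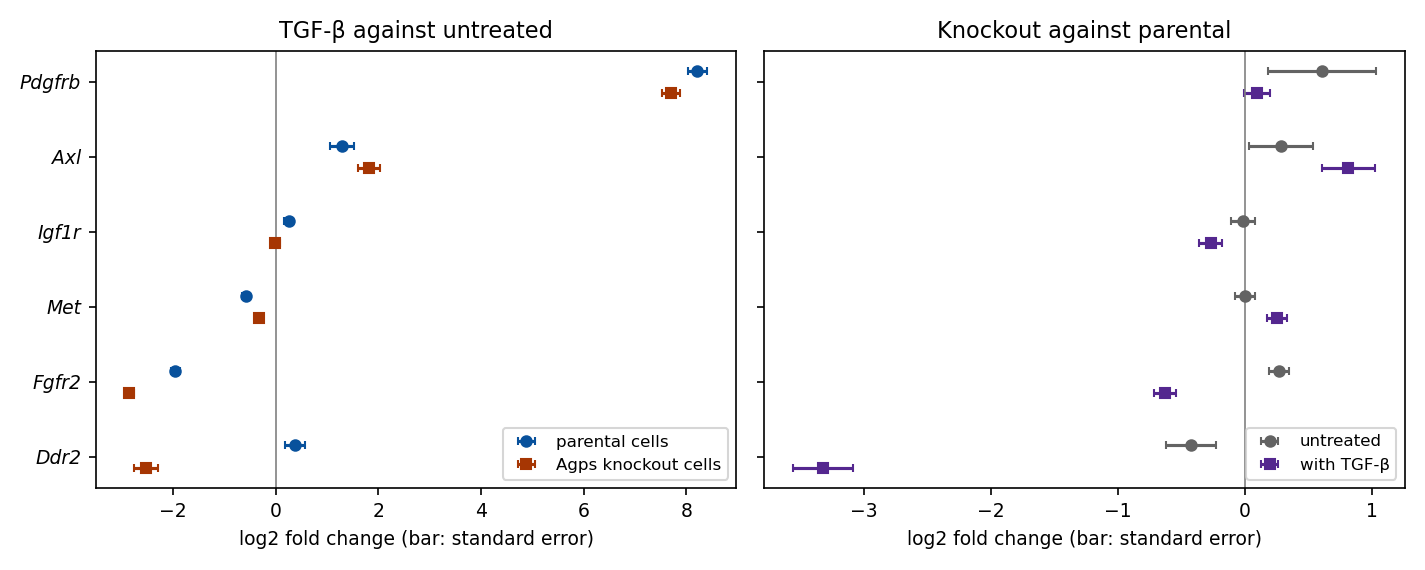
Log2 fold changes of 6 receptors, without the low-count Pdgfra, Fgfr1, Fgfr3 and Kit, with standard errors derived from the F test as bars. Left, TGF-β against untreated in parental and knockout cells, and right, knockout against parental without and with TGF-β. Pdgfrb held only 10 and 18 counts in its untreated groups, so its bars on the left may understate counting error. For Ddr2 the 2 lines lie apart on the left (0.38 and -2.52), and for Fgfr2 both lie below 0 (-1.95 and -2.84).

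Per kilobase of exon the order of the receptors changed with treatment. Among 58 receptor tyrosine kinases, Met ranked 2 in untreated parental cells (50.5 ± 0.6 RPKM) behind Epha2. Fgfr2 (14.5 ± 0.4 RPKM) and Igf1r (11.9 ± 1.4) followed at ranks 9 and 10, Ddr2 (3.55 ± 1.24) and Axl (0.687 ± 0.214) at 17 and 20. Pdgfrb was at rank 26 (0.0513 ± 0.0182). With TGF-β Pdgfrb stood at rank 7 (15.4 ± 1.1), beside Igf1r at 8 (14.2 ± 0.2), and their ranges of mean ± SD overlap. Ddr2 (4.61 ± 0.30) then stood at rank 14 and Fgfr2 (3.75 ± 0.02) at 16, with Axl (1.69 ± 0.21) at 20.

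In untreated knockout cells Met ranked 1 (50.5 ± 1.3 RPKM), within the spread of Epha2 (48.1 ± 4.1) and Egfr (47.9 ± 3.2), Fgfr2 8 (17.5 ± 0.7), Igf1r 10 (11.8 ± 0.3) and Ddr2 15 (2.65 ± 0.24). With TGF-β Met (40.6 ± 1.1, within the spread of Epha2 at 42.4 ± 2.9), Pdgfrb (16.5 ± 0.9) and Igf1r (11.8 ± 0.4) stood at ranks 2, 6 and 8, Axl (2.99 ± 0.60) and Fgfr2 (2.43 ± 0.01) at 14 and 16, whose ranges of mean ± SD overlap, and Ddr2 at 24 (0.460 ± 0.075). Pdgfra and Fgfr1 stayed at 0.312 RPKM or less in every group. The 10 receptors together held 23.6% to 28.8% of the summed receptor tyrosine kinase RPKM in each library.

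**Figure D4:**
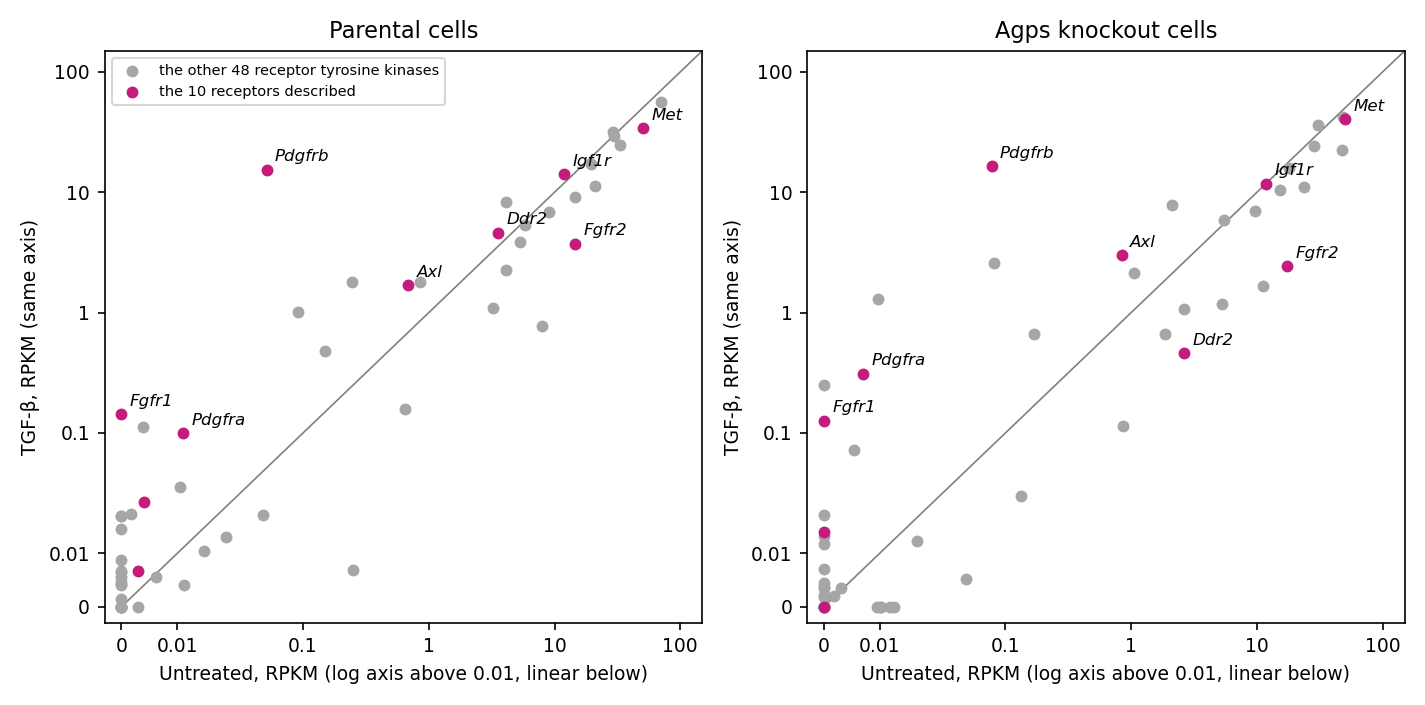
Mean RPKM of 58 receptor tyrosine kinases with TGF-β (vertical) against untreated (horizontal), in parental cells (left) and Agps knockout cells (right), on axes that are logarithmic above 0.01 and linear below it; each point is a gene and the line marks equal levels. Pdgfrb lies farthest above the line among the receptors over 10 RPKM, and Ddr2 lies on the upper side of the line in parental cells and under it in knockout cells.

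Of the other 48 receptor tyrosine kinases 22 were tested, and with TGF-β 7 rose and 11 fell in parental cells and 6 rose and 10 fell in knockout cells, against the same 21.3% and 21.2%, and 20.9% and 20.6%, of all genes. Ret and Mst1r passed the filter through their treated libraries, Ntrk3 through treated parental ones and Ros1 through untreated ones. These counts of called genes therefore carry no weight as support. Erbb3, the neuregulin receptor, fell in parental (-3.36 ± 0.23) and in knockout cells (-2.745 ± 0.206). Csf1r fell as well (-0.47 ± 0.11 and -2.14 ± 0.12), although a gene on the opposite strand covers 15.1% of its exon bases. Ror1 rose by 0.99 ± 0.11 and 1.88 ± 0.12. Csf1r is also 1 of 6 immune cell markers, of which 2 were tested. The other, Cd68, rose in both lines (2.20 ± 0.32 and 2.21 ± 0.28). Their sums were 32.3 to 32.6, 28.0 to 30.4, 32.5 to 32.9 and 17.2 to 18.3 CPM in the order above, Cd3e and Adgre1 were at 0 in all groups, and their part in the receptor levels was not tested. Of 16 co-receptors and ligand-processing genes 11 were tested, of which 5 rose and 4 fell in parental cells and 7 rose and 3 fell in knockout cells, against the same shares of all genes. St14 among them passed the filter through its treated libraries, so these counts are no support either. Gpc1, a heparan sulfate carrier for FGFs, rose by 2.98 ± 0.13 and 3.87 ± 0.13, Nrp1 by 1.82 ± 0.10 and 2.52 ± 0.10, and Lrp1, which binds PDGF receptor β, by 1.85 ± 0.10 and 1.68 ± 0.09. An opposite-strand gene covers 18.9% of the exon bases of Gpc1.

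Of 22 listed downstream adaptors 19 were tested, and 6 rose and 4 fell in each line, with median changes of 0.12 and 0.03, beside 21.3% and 21.2% of all genes called in parental and 20.9% and 20.6% in knockout cells. Grb7, an adaptor of ErbB receptors, fell in both lines (-1.52 ± 0.14 and -1.59 ± 0.14), as did Pik3r1, a regulatory subunit of phosphoinositide 3-kinase (-0.92 ± 0.11 and -1.22 ± 0.11). Of 14 genes that shut receptors off or shed them 12 were tested, of which 3 rose and 3 fell in parental cells and 4 rose and 3 fell in knockout cells, shares near those of all genes. Errfi1, an inhibitor of the EGF receptor family, fell in both lines (-1.29 ± 0.12 and -1.89 ± 0.12), as did Ptprj, a phosphatase of Met and PDGF receptors (-0.70 ± 0.09 and -0.97 ± 0.09).

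The genes whose levels followed each receptor most closely over the 8 libraries were named by Pearson's r of log2 CPM among 9321 genes, a description in which the 4 groups of 2 libraries set most of the pattern. For Pdgfrb Fn1 came first (0.9996), for Fgfr2 they were Kctd3 (0.9989) and Folr1 (0.9988), for Met Plce1 (0.9961) and Calml4 (0.9922), and for Axl Dusp28 (0.9940) and C1qbp (0.9894). For Ddr2 they were Pgrmc2 (0.9941) and Nrg1 (0.9768), for Pdgfra Adam10 (0.9966) and Cttn (0.9947), for Fgfr1 Als2cl (0.9968) and Pisd (0.9966). Igf1r had looser matches, Fgfr1op2 (0.9441) and Zfp605 (0.9326).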

How the data were processed

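RNA was sequenced from 8 libraries, 2 for each of 4 groups, and the members and gene lists were chosen with earlier results of these data known. Per the submitters' processing notes, STAR 2.7.1a, featureCounts 1.6.2 and DESeq2 1.26.0 were used with GRCm38 (mm10). Neither the annotation release nor the strandedness of counting is given in the sources used here. Deposited files, 1 per library, hold whole raw counts per gene, and a deposited table of normalized values was not used.

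From the counts of 55450 genes, edgeR 4.0.16 (R 4.3.3) kept 14641 with filterByExpr (minimum count 10, by group), which hold 99.9% of the counts, and scaled libraries by TMM. A quasi-likelihood fit with 1 mean per group over all 8 libraries (4 residual degrees of freedom) gave 5 contrasts, each with Benjamini-Hochberg adjustment over all tested genes. Changes with ± are log2 fold changes of that fit, called at an adjusted p under 0.05. The ± value is a standard error derived from the test, as the absolute change over the square root of its F. For large changes from few counts it can be smaller than counting error alone. RPKM is CPM per kilobase of exon in GENCODE M21 (GRCm38). A group at 0 is set to a floor of 3 counts, and ratios of low counts carry exact 95% intervals for counting error. The steps were tested on simulated data.

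The text names the 10 receptors, up to 4 called genes of each list and contrast by adjusted p (average log2 CPM of at least 1), and for each receptor the 2 closest genes by Pearson's r (average log2 CPM of at least 3). A result that this rule selects is not reported here. Genes named beyond that rule, among them ligands named to describe their receptors, were chosen after their values were seen. Alternatives were other scalings, filters and fits, DESeq2 1.42.0, a replicate block, chromosomes left out and each library left out.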

Additional observations from a re-analysis of the deposited data

Results flagged for a closer look

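The results here were singled out because the TGF-β change differed between the lines by a test of the difference itself (edgeR's quasi-likelihood interaction contrast, adjusted over all 14641 tested genes). Each value is the log2 change in knockout cells minus that in parental cells. Among the 10 receptors these were Ddr2 (-2.90, adjusted p = 7.76e-04) and Fgfr2 (-0.90, adjusted p = 0.00351). Ddr2 changed by -2.52 in knockout cells, whereas the parental change of 0.38 did not pass the test.

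Among ligands they were Fgf2 (2.68, adjusted p = 0.0246), Fgf18 (-1.41, adjusted p = 0.0102) and Kitl (-0.75, adjusted p = 0.0278). Among co-receptors and ligand-processing genes, Plat, tissue plasminogen activator, fell by 0.54 in parental cells and rose by 0.96 in knockout cells (difference 1.501, adjusted p = 4.64e-04). The syndecan Sdc1 rose by 0.82 in knockout cells, where the parental change of -0.16 did not pass (difference 0.98, adjusted p = 0.0127). Gpc1 (0.89, adjusted p = 0.0239) and Nrp1 (0.71, adjusted p = 0.0227) rose in both lines.

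Among other receptor tyrosine kinases they were Tyro3 (2.13, adjusted p = 0.00958), Ror1 (0.89, adjusted p = 0.0146), Csf1r (-1.67, adjusted p = 5.55e-04) and Egfr (-0.68, adjusted p = 0.0454). Untreated levels already differed between the lines for Tyro3 (-1.60), Ror1 (-0.96), Plat (-2.11), Nrp1 (-1.38) and Gpc1 (-0.57), all lower in the knockout, and for Egfr (0.52), Kitl (0.47) and Fgfr2 (0.27), which were higher. Fgf2 held 48 counts in untreated parental and 20 in untreated knockout cells (1.35 and 0.473 CPM on average), a gap that was not called. With TGF-β the lines differed by 1.20 for Fgf2. Plat and Nrp1 lie on chromosome 8, whose tested genes had a median of -0.46 between the untreated lines, and Fgf2 on chromosome 3, with a median of -0.28.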

How the results depend on the processing

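Of 613 fold changes of the receptors under alternatives, 546 kept their direction and their side of the threshold, 38 lost and 8 gained the call, and 0 turned a called direction. The other 21 were not called and had the other sign: Met (8) and Igf1r (3) between untreated lines, Igf1r with TGF-β in knockout cells (6), and Fgfr1 between treated lines (2) and in the difference of the changes (2). Other scalings moved the median of all genes by at most 0.042. Receptors called between untreated lines (1, Fgfr2) numbered 0 without the genes of chromosomes 3, 8, 15 and X, 0 with only the 4 libraries compared and 0 with DESeq2. With a library left out, the Fgfr2 change ran from 0.226 to 0.308. Ddr2, which was not called in the main fit, was at -0.75 without parental untreated replicate 1. All genes called there (2000) numbered 1009 without those chromosomes and 1111 with the 4 libraries. With TGF-β, receptors called between lines (5) numbered 2 to 5 with a library left out, and all genes (2618) numbered 1530 without those chromosomes and 1188 to 2922 with a library left out. Where a group kept a single library, it was assumed to vary like the others. Genes whose TGF-β change differed between lines (352) numbered 855 without a filter on low counts, 679 with the replicate block and 120 to 421 with a library left out. The cause was not tested.

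Same-numbered libraries deviated together with correlations of 0.0243 to 0.269 over 6 pairs of groups, all positive. These values do not decide whether the numbers pair libraries. The main fit used no replicate block because the labels do not say what a replicate number shares. The replicate block changed 1 call among the receptors, adding Igf1r between the treated lines (-0.27, adjusted p = 0.0431). Without a filter on low counts, Ddr2 was called with TGF-β in parental cells (0.36, adjusted p = 0.0426) and between untreated lines (-0.44, adjusted p = 0.0278). With 2 libraries a group and untreated totals of 0 to 18 counts for Pdgfra, Pdgfrb and Fgfr1, the size of their rises is known only within wide limits.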
